A study of Mus musculus with 6 samples.

Results

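The genes described here build and maintain cilia, the microtubule-based projections that carry the odour-sensing machinery of olfactory neurons and that beat on multiciliated cells. They were chosen by symbol: Ift, Bbs, Dnah, Rsph, Tctn or Tekt followed directly by a number, or a symbol starting with Dnaic or Dnali. Only probe sets with 1 gene symbol were used, and where a gene had several, the brightest on average across the 6 arrays stood for it. The rule gave 53 of the 19938 genes measured. Of these, 25 belong to cilia transport and its gate (14 Ift, 8 Bbs and 3 Tctn genes), and 28 to the axoneme (15 Dnah, 3 Dnaic or Dnali, 5 Rsph and 5 Tekt genes).

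The samples were EGFP-expressing cells sorted from the dissected main olfactory epithelium (MOE) of C57BL/6 mouse embryos at E18.5, with 3 Fezf1-/- and 3 Fezf1+/- arrays. In the targeted Fezf1 allele, EGFP is driven by the gene's own promoter, so both groups carry at least 1 targeted allele and the Fezf1+/- cells are heterozygous, not wild type. The sort selects cells in which that promoter is or was active, and the labels do not say how many embryos gave each sample. RNA was hybridised to Affymetrix Mouse Gene 1.0 ST arrays, and the values are log2 signals. All differences are Fezf1-/- minus Fezf1+/- on that log2 scale, so a difference of -1 is a 2-fold lower signal in Fezf1-/- cells.

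Intraflagellar transport (IFT) carries cargo along the cilium: the IFT-B complex with kinesin moves it towards the tip, and the IFT-A complex with dynein returns it to the base. The BBSome, named after Bardet-Biedl syndrome, moves membrane proteins in and out of the cilium, and the tectonics (Tctn) sit in the transition zone, the gate at its base. Axonemal dyneins, radial spokes and tektins belong to the axoneme, the microtubule core, and dyneins and spokes serve beating. Olfactory sensory neurons carry immotile sensory cilia, whereas multiciliated cells of the neighbouring respiratory epithelium carry motile ones with dynein arms.

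Many cilia genes are targets of RFX transcription factors, which bind the X-box, and genes of motile cilia are also targets of the forkhead factor Foxj1. RefSeq promoters (GRCm38.p6, 250 bases before to 50 after the start) were on hand for 47 of the 53 genes and were searched on both strands. Ift122, Ift80, Ift81, Dnah3, Rsph4a and Rsph1 had no entry. The RFX half-site GTTGCC was present in 11 of 22 transport promoters and 8 of 25 axoneme promoters (32.0%), against 14.1% of the promoters of 27025 genes. Those 8 include the near-identical copies Dnah7a, Dnah7b and Dnah7c, each counted separately. A full pair of facing half-sites (GTTNCC and GGNAAC with 2 bases between them), which can contain the half-site, was present in Bbs7 and Tctn1 (9.09% of transport promoters), in 0 of 25 axoneme promoters and in 0.529% of all. The forkhead sequence TGTTTAC was present in 0 of 22 transport promoters and in Dnah17 and Tekt3 (8.0% of axoneme promoters), against 4.05% of all. These are matches of letters and not measured binding sites.

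The windows below are those with at least 2 half-sites or a full pair before the start, picked after the matches were seen, with up to 20 bases on each side and none past the start. Capitals mark the half-sites or the pair, the facing strand's half-site reading GGCAAC. All are from GRCm38.p6 and are written along the gene's own strand: Ift57 at chr16:49699187-49699259 on the plus strand, and on the minus strand Bbs7 at chr3:36613477-36613530, Tekt2 at chr4:126325685-126325804 and Tekt1 at chr11:72361883-72361937.
Ift57: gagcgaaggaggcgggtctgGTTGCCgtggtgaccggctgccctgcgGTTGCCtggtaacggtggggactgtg
Bbs7: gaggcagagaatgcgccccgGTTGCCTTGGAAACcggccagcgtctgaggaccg
Tekt2: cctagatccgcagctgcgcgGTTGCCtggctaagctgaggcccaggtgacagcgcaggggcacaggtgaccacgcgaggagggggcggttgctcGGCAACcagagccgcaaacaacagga
Tekt1: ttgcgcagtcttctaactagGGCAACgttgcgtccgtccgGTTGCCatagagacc

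Fezf1, the targeted gene, read 5.56, 5.92 and 6.28 on the Fezf1-/- arrays, against 11.25, 11.12 and 11.30 on the Fezf1+/- arrays (difference -5.31, SE 0.19, limma adjusted p = 0.000755). Array medians over genes lay between 6.43 and 6.48. One array stood apart: Fezf1-/- 1 correlated with the others across genes at 0.905 to 0.935, against 0.975 to 0.995 among the other 5. It was the array with high mesenchyme and bone markers, whose summed linear signal over 11 genes was 19310 there, against 1306 and 1943 on the other Fezf1-/- arrays and 1098 to 2761 on the Fezf1+/- arrays. Most results are therefore given with all 6 arrays and without Fezf1-/- 1, which leaves 2 Fezf1-/- arrays. Some single genes and counts are given with all 6 arrays only, which does not mean that Fezf1-/- 1 left them unchanged.

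Cilia genes leaned towards lower signal in Fezf1-/- cells, by small amounts. With all 6 arrays, 46 of the 53 had a difference below 0, where 45.2% of all genes did, and their median difference was -0.32, against 0.02 over all genes. None of the 53 passed an adjusted p of 0.05 in limma, a threshold that 0.552% of all genes passed (0.456% lower). At an unadjusted p under 0.05, 9 were lower (5.25% of all genes) and 1 was higher (4.23% of all genes). The Fezf1-/- values lay wholly below the Fezf1+/- values in 18 members and wholly above in 1, where 8.77% and 9.72% of all genes did so. Without Fezf1-/- 1 the median of the 53 was -0.17, 44 were below 0 (44.7% of all genes), and 1 gene, Dnah11, fell past the threshold, which 2.66% of all genes passed (1.67% lower). At an unadjusted p under 0.05, 7 members were then lower (8.68% of all genes) and 1 was higher (7.63% of all genes). Values lay wholly below in 22 and wholly above in 2, against 16.3% and 19.9% of all genes. In sorted bulk cells, fewer cells of a type and less RNA per cell cannot be told apart.

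**Figure D1:**
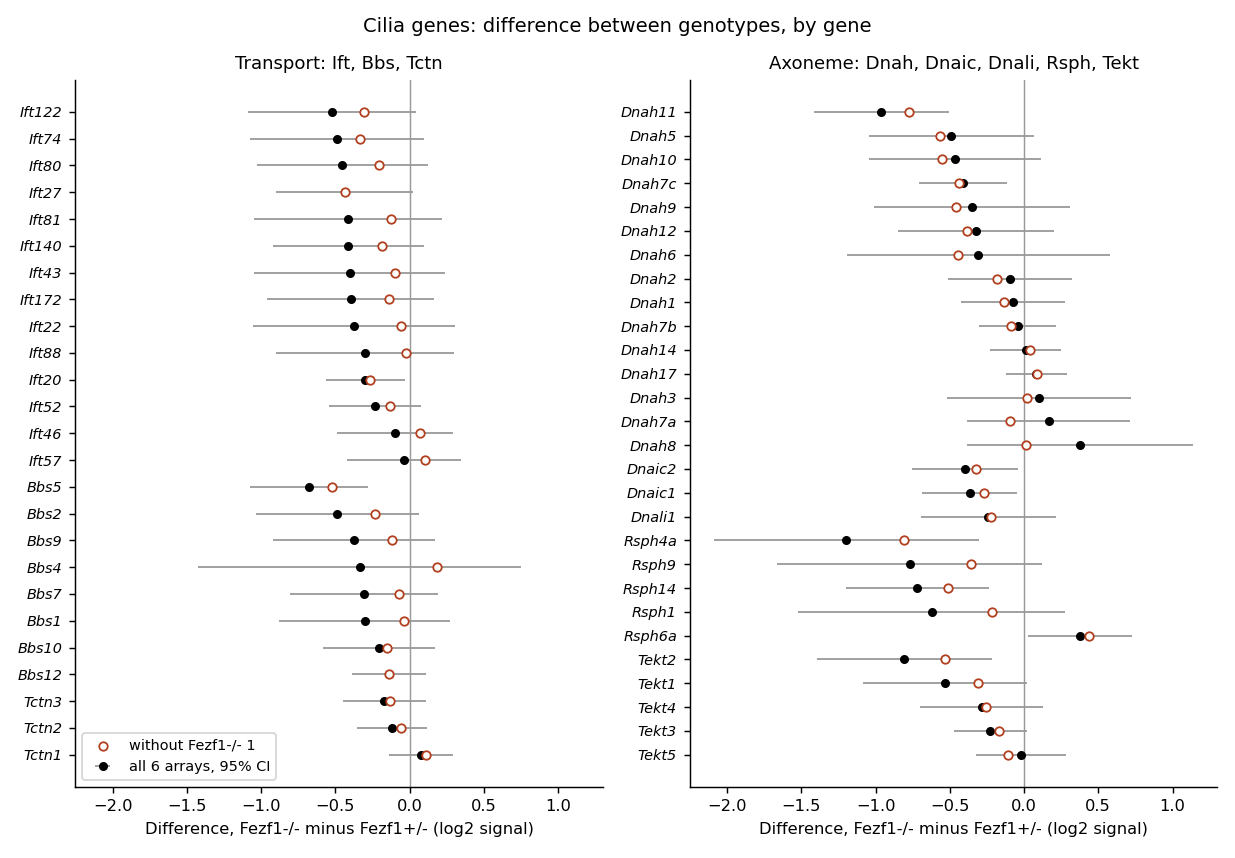
Difference between Fezf1-/- and Fezf1+/- arrays for each of the 25 transport genes (left) and 28 axoneme genes (right), in log2 signal. Black points with bars are estimates from all 6 arrays with 95% confidence intervals, and open circles leave out Fezf1-/- 1. Most points lie left of 0, and the open circles of the Ift and Bbs genes lie closer to 0 than the black points.

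All 14 Ift genes had a difference below 0 with all 6 arrays, with a median of -0.40 and a range of -0.52 to -0.04. Leaving out Fezf1-/- 1 brought the median to -0.14, with 12 of 14 below 0. Ift20, an IFT-B subunit that also works at the Golgi, read 9.19, 9.17 and 9.39 in Fezf1-/- cells, against 9.44, 9.52 and 9.67 in Fezf1+/- cells. Its groups did not overlap, and the difference was -0.30 (SE 0.11, limma adjusted p = 0.470), with the smallest unadjusted p of the Ift genes, 0.0334. Ift122, an IFT-A subunit of the return route, read 7.40, 8.0 and 8.08 in Fezf1-/- cells, against 8.09, 8.32 and 8.64 in Fezf1+/- cells. Here the groups met almost at 8.08 and 8.09, and Fezf1-/- 1 lay well below every other array. The difference was -0.52 (SE 0.23, adjusted p = 0.547) with that array and -0.31 (SE 0.16) without it.

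Ift74, which binds tubulin as cargo together with Ift81, read 6.86, 7.29 and 7.36 in Fezf1-/- cells and 7.24, 7.70 and 8.04 in Fezf1+/- cells, so its groups overlapped. Ift27, a small GTPase-like IFT-B subunit, read 7.16, 7.07 and 7.26 in Fezf1-/- cells, against 7.21, 7.90 and 7.70 in Fezf1+/- cells. It was one of the few Ift genes that Fezf1-/- 1 did not set apart: its difference was -0.44 with all 6 arrays and -0.44 without that array. For Ift80, a peripheral IFT-B subunit, the values were 9.31, 10.003 and 10.13 in Fezf1-/- cells and 10.10, 10.24 and 10.46 in Fezf1+/- cells. Most of its difference of -0.45 came from 1 array, since it was -0.20 without Fezf1-/- 1. Ift57, whose promoter window with both half-sites is printed above, read 8.79, 9.16 and 9.29 in Fezf1-/- cells and 9.05, 9.03 and 9.28 in Fezf1+/- cells. Its groups overlapped throughout, and its difference of -0.04 became 0.10 without Fezf1-/- 1.

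In the remaining 8 Ift genes the difference lay closer to 0 without Fezf1-/- 1 than with it. Ift140 and Ift43, the other IFT-A subunits, differed by -0.41 and -0.40 with all 6 arrays and by -0.18 and -0.10 without Fezf1-/- 1. Ift88 and Ift52, core IFT-B subunits, differed by -0.30 and -0.23, and by -0.03 and -0.13 without that array. Ift172 and Ift81 differed by -0.40 and -0.41, against -0.14 and -0.12 without it. Ift22, a Rab-like IFT-B subunit, stood at -0.37 and -0.06, and Ift46, another IFT-B subunit, at -0.10 and 0.07. Without Fezf1-/- 1, the 95% confidence intervals of all 14 Ift differences lay within a 2-fold change in either direction. With all 6 arrays, 8 of the 14 did.

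All 8 Bbs genes had a difference below 0, with a median of -0.32 with all 6 arrays and -0.13 without Fezf1-/- 1. Bbs5, a BBSome subunit with membrane-binding domains, had the smallest p among the transport genes. It read 7.91, 8.40 and 8.35 in Fezf1-/- cells, against 8.79, 8.86 and 9.06 in Fezf1+/- cells. The groups were clearly apart, with the highest Fezf1-/- array below the lowest Fezf1+/- array. The difference was -0.68 (SE 0.16, limma adjusted p = 0.237), a 1.6-fold lower signal, and -0.52 (SE 0.11, adjusted p = 0.0700) without Fezf1-/- 1. With array weights, which let limma count Fezf1-/- 1 less (weight 0.136), it was also -0.52 and the adjusted p was 0.0345.

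Bbs2, a BBSome subunit, read 7.91, 8.73 and 8.62 in Fezf1-/- cells, against 8.95, 8.80 and 8.95 in Fezf1+/- cells. These groups did not overlap either, and the difference was -0.49 (SE 0.23) with all 6 arrays and -0.23 (SE 0.10) without Fezf1-/- 1. Bbs7, with the RFX pair printed above, read 7.20, 7.90 and 7.88 in Fezf1-/- cells, against 7.92, 7.94 and 8.03 in Fezf1+/- cells. Apart from Fezf1-/- 1 its 5 values spanned little, and its difference of -0.30 was -0.07 without that array. Bbs4, another BBSome subunit, had the widest spread: 7.34, 8.78 and 9.01 in Fezf1-/- cells and 8.48, 8.71 and 8.95 in Fezf1+/- cells. Its difference was -0.34 with all 6 arrays and 0.18 without Fezf1-/- 1, so 1 array set its sign. Bbs9 and Bbs1, also BBSome subunits, differed by -0.37 and -0.30, and by -0.12 and -0.04 without that array. Bbs10 and Bbs12, chaperonin-like proteins that help assemble the BBSome, differed by -0.21 and -0.14, and by -0.15 and -0.14 without it.

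The 3 tectonics differed little between genotypes. Tctn3 read 7.32, 7.47 and 7.39 in Fezf1-/- cells and 7.40, 7.55 and 7.74 in Fezf1+/- cells, a difference of -0.17 (SE 0.11). Tctn2 had a difference of -0.12 (SE 0.10). Tctn1, the other gene with a full RFX pair, which lies after its start, read 6.74, 6.92 and 6.79 in Fezf1-/- cells and 6.70, 6.76 and 6.76 in Fezf1+/- cells. Its groups overlapped, and at 0.08 (SE 0.09) it was the 1 transport gene above 0. The 95% intervals of all 3 tectonics lay within a 2-fold change with all 6 arrays.

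Among the axoneme genes, Dnah11 was the one gene that passed the threshold, in the fit without Fezf1-/- 1. It encodes an outer-arm dynein heavy chain, and its loss in mice (the iv mutant) randomises left-right asymmetry. Dnah11 read 6.01, 6.56 and 6.56 in Fezf1-/- cells, against 7.53, 7.30 and 7.18 in Fezf1+/- cells. Every Fezf1-/- array was below every Fezf1+/- array by a wide margin. The difference was -0.96 (SE 0.19, limma adjusted p = 0.146), a 1.95-fold lower signal, and -0.78 (SE 0.12, adjusted p = 0.0264) without Fezf1-/- 1. Over the fits that left out 1 array at a time, its difference ran between -1.05 and -0.78 and its adjusted p between 0.0264 and 0.454.

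The other dynein heavy chains had smaller differences. Of the 15 Dnah genes, 10 were below 0 with all 6 arrays, with a median of -0.09, and 11 were below 0 without Fezf1-/- 1, with a median of -0.18. Dnah5, an outer-arm heavy chain of motile cilia, read 7.26, 7.08 and 6.95 in Fezf1-/- cells, against 7.49, 8.06 and 7.21 in Fezf1+/- cells. Fezf1+/- 2 was the highest array, and the difference of -0.49 (SE 0.23, adjusted p = 0.569) was -0.25 without it. Dnah9, a second outer-arm heavy chain, read 6.51, 6.24 and 6.13 in Fezf1-/- cells, against 6.36, 7.24 and 6.33 in Fezf1+/- cells. Here Fezf1+/- 2 set nearly all of the difference of -0.35, which was -0.05 without that array.

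Several inner-arm heavy chains also depended on Fezf1+/- 2. Dnah10 read 5.76, 5.59 and 5.39 in Fezf1-/- cells, against 5.94, 6.53 and 5.66 in Fezf1+/- cells, and its difference was -0.46 with all 6 arrays and -0.22 without Fezf1+/- 2. Dnah12 differed by -0.32, and by -0.13 without that array. Dnah6 read 6.09, 5.95 and 5.41 in Fezf1-/- cells and 6.00, 6.85 and 5.53 in Fezf1+/- cells. Its groups overlapped, and its difference of -0.31 became 0.05 without Fezf1+/- 2. Dnah2 and Dnah1 differed by -0.09 and -0.07, and by 0.01 and 0.04 without that array. Dnah7c, at -0.41 with and without that array, and Dnah7a, at 0.16 and 0.20, changed little. Fezf1+/- 2 was the highest of the 6 arrays for 9 of 15 Dnah genes.

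Dnah3, an inner-arm heavy chain covered by 33 probe sets, differed by 0.10 at the probe set that represents it. At 28 of the 33 the difference was below 0, with a median of -0.20, and 19 of the 33 had a mean below 4.94, the lower quartile of all gene values. The chosen probe set thus differs in sign from most of the others of this gene. Fezf1+/- 2 was the highest array at 23 of the 33. Dnah6, with 3 probe sets, and Dnah12, with 2, were below 0 at every one. Dnah10 was below 0 at 3 of 5, with a median of -0.12, its representative probe set had the most negative difference of the 5, and the mean of its probe sets differed by -0.13.

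Dnah8 and Dnah17, heavy chains known from sperm flagella, differed by 0.38 and 0.08. For Dnah8, the values were 6.13, 5.05 and 5.01 in Fezf1-/- cells and 5.17, 4.99 and 4.90 in Fezf1+/- cells. Fezf1-/- 1 alone was high, and without it the difference was 0.01. The near-identical copies Dnah7a, Dnah7b and Dnah7c differed by 0.16, -0.04 and -0.41, all with means below the lower quartile of gene values. Dnah7c read 4.17, 4.22 and 3.96 in Fezf1-/- cells, against 4.67, 4.53 and 4.38 in Fezf1+/- cells, with groups that did not overlap (adjusted p = 0.348). Probes of one copy may bind transcripts of another, and signals this dim are compressed, so these 3 values are uncertain. Dnah14, the dimmest member, differed by 0.01.

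Both outer-arm intermediate chains, which join the heavy chains to the microtubule, had every Fezf1-/- array below every Fezf1+/- array. Dnaic1 read 5.31, 5.57 and 5.65 in Fezf1-/- cells, against 5.71, 5.96 and 5.96 in Fezf1+/- cells (difference -0.37, SE 0.13, adjusted p = 0.458). Dnaic2 read 6.29, 6.56 and 6.46 in Fezf1-/- cells, against 6.57, 7.01 and 6.92 in Fezf1+/- cells (difference -0.40, SE 0.15, adjusted p = 0.476). In both genes the gap between the groups was narrow, and the differences were -0.27 and -0.32 without Fezf1-/- 1. Dnali1, an inner-arm light intermediate chain, read 5.67, 5.76 and 5.71 in Fezf1-/- cells and 5.76, 6.37 and 5.73 in Fezf1+/- cells. Its Fezf1+/- 2 value stood alone, and the difference of -0.24 was -0.03 without that array.

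Radial spoke genes had the lowest family median, -0.72 with all 6 arrays and -0.36 without Fezf1-/- 1. Rsph4a, a spoke-head protein of motile cilia, had the most negative difference of the 53 genes. It read 6.14, 7.45 and 7.15 in Fezf1-/- cells, against 7.74, 8.27 and 8.34 in Fezf1+/- cells. The groups did not overlap, and Fezf1-/- 1 was far below the rest. The difference was -1.20 (SE 0.37, limma adjusted p = 0.379), a 2.29-fold lower signal, and -0.81 (SE 0.20, adjusted p = 0.106) without that array.

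Rsph14, another radial spoke protein, read 6.02, 6.70 and 6.59 in Fezf1-/- cells, against 7.02, 7.29 and 7.16 in Fezf1+/- cells. Its groups were apart, with a difference of -0.72 (SE 0.20, adjusted p = 0.312), and of -0.51 (SE 0.11, adjusted p = 0.0768) without Fezf1-/- 1. With array weights its adjusted p was 0.0494. Rsph9, a spoke-head protein, read 7.99, 9.24 and 9.19 in Fezf1-/- cells, against 9.28, 9.60 and 9.84 in Fezf1+/- cells. Rsph1, also of the spoke head, read 6.22, 7.46 and 7.41 in Fezf1-/- cells and 7.30, 7.86 and 7.81 in Fezf1+/- cells. In both, Fezf1-/- 1 was more than a log2 unit below the next lowest array, and the differences of -0.77 and -0.62 were -0.36 and -0.22 without it. Rsph6a, a paralogue of Rsph4a known from mouse sperm, went the other way. It read 5.44, 5.62 and 5.60 in Fezf1-/- cells, against 5.25, 5.38 and 4.91 in Fezf1+/- cells, the 1 member whose Fezf1-/- values lay wholly above (difference 0.38, SE 0.14, adjusted p = 0.496).

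Tektins are filamentous proteins of the doublet microtubules. Tekt2, whose promoter window with half-sites on both strands is printed above, is needed in mice for sperm and airway cilia to move normally. It read 6.48, 7.29 and 7.30 in Fezf1-/- cells, against 7.84, 7.70 and 7.96 in Fezf1+/- cells. Every Fezf1-/- array was below every Fezf1+/- array, with a difference of -0.81 (SE 0.24, limma adjusted p = 0.365), and of -0.54 (SE 0.11, adjusted p = 0.0583) without Fezf1-/- 1. Tekt1, also printed above, read 5.75, 6.38 and 6.46 in Fezf1-/- cells, against 6.49, 6.73 and 6.96 in Fezf1+/- cells (difference -0.53, SE 0.23). Its groups were barely apart, and the difference was -0.31 without Fezf1-/- 1. Tekt3, Tekt4 and Tekt5, tektins known from sperm, differed by -0.23, -0.29 and -0.02.

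**Figure D2:**
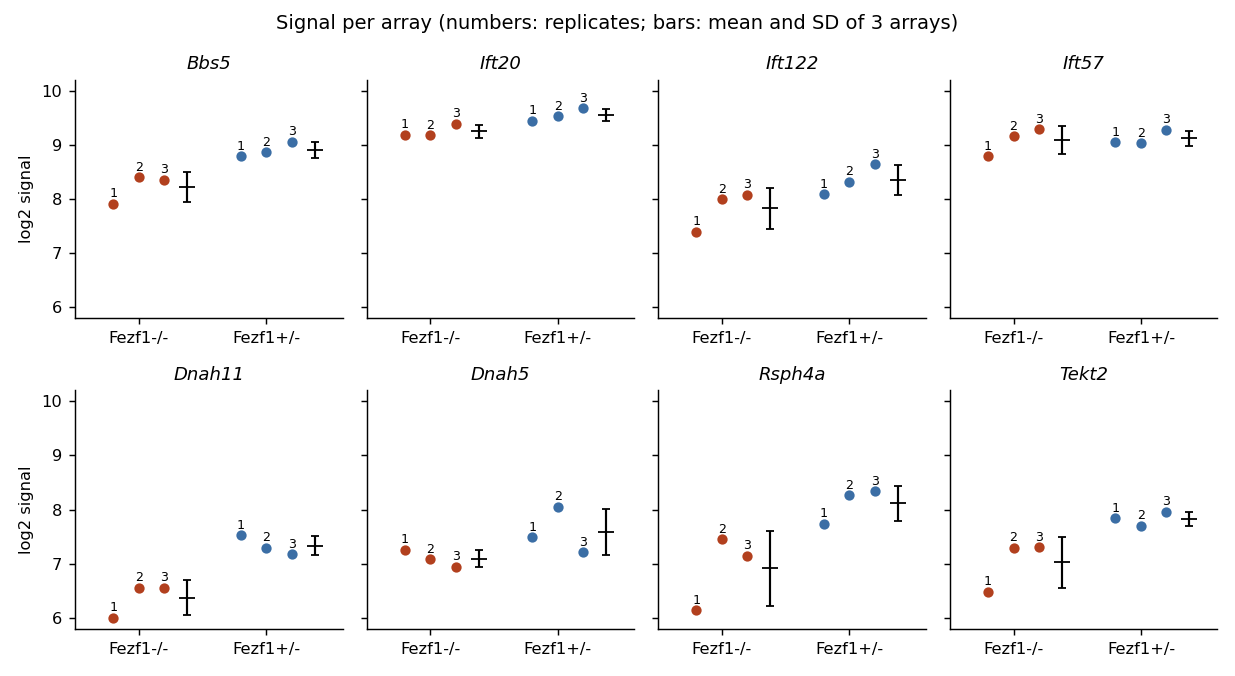
Log2 signal of 8 cilia genes on each Fezf1-/- array (left in each panel) and Fezf1+/- array (right), numbered by replicate, with the mean and SD of 3 arrays. In Dnah11, Bbs5, Rsph4a and Tekt2 the groups do not overlap, in Ift20 and Ift122 they lie apart by little, and in Ift57 and Dnah5 they overlap.

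Axoneme and transport genes had nearly the same median difference with all 6 arrays, -0.32 for axoneme and -0.34 for transport genes, but the arrays behind it were not the same. Axoneme genes were below 0 in 22 of 28 and transport genes in 24 of 25. At an unadjusted p under 0.05, 7 axoneme genes were lower and 1, Rsph6a, was higher, and 2 transport genes (Ift20 and Bbs5) were lower. Of all genes, 5.25% were lower and 4.23% higher at that p, so 2 of 25 is near the share over all genes. Without Fezf1-/- 1 the medians were -0.26 for axoneme and -0.13 for transport genes, with 23 of 28 axoneme and 21 of 25 transport genes below 0. The axoneme median minus the transport median was 0.02 with all 6 arrays and -0.13 without Fezf1-/- 1, and it was not tested. Leaving out other single arrays gave 0.10 (Fezf1-/- 2), 0.22 (Fezf1-/- 3), -0.0017 (Fezf1+/- 1), 0.20 (Fezf1+/- 2) and -0.08 (Fezf1+/- 3), so single arrays set its sign. The classes also differ in brightness: 23 of 25 transport genes but 11 of 28 axoneme genes lie above the median gene. Among these brighter genes the medians with all 6 arrays were -0.62 for axoneme and -0.37 for transport genes, a difference of -0.25. Without Fezf1-/- 1, 22 of 28 axoneme intervals and all 25 transport intervals lay within a 2-fold change in either direction. With all 6 arrays, 16 of 28 axoneme and 16 of 25 transport intervals did.

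Fezf1-/- 1 shifted the transport genes as a group. That array read lower than the mean of the other Fezf1-/- arrays for 25 of 25 transport genes, with a median shift of -0.64, and for 15 of 28 axoneme genes, with a median shift of -0.04. Over all genes it was lower for 11147 of 19938, with a median shift of -0.05, so the axoneme values are near those of all genes. Within the axoneme the families parted: Fezf1-/- 1 was lower for 5 of 5 Rsph genes (median -1.16) and for 3 of 15 Dnah genes (median 0.24). Measured from each gene's Fezf1+/- mean, the transport median was -0.82, -0.13 and -0.10 on the Fezf1-/- arrays, against -0.09, -0.03 and 0.14 on the Fezf1+/- arrays. The axoneme median was -0.28, -0.23 and -0.24 on the Fezf1-/- arrays, against -0.10, 0.14 and -0.09 on the Fezf1+/- arrays. This axoneme median joins families that differ: on the Fezf1-/- arrays it was -1.43, -0.34 and -0.39 for Rsph genes and -0.04, -0.17 and -0.20 for Dnah genes. On the Fezf1+/- arrays it was -0.295, 0.16 and 0.15 for Rsph genes and 0.03, 0.21 and -0.23 for Dnah genes. The Dnah median on Fezf1+/- 3 was thus below that of every Fezf1-/- array. Fezf1+/- 2 was the highest of the 6 arrays for 15 of 28 axoneme genes. Among transport genes, Fezf1+/- 3 was the highest of the 6 arrays for 17 of 25. Without Fezf1+/- 2, 18 of 28 axoneme genes were below 0, with a median of -0.15.

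**Figure D3:**
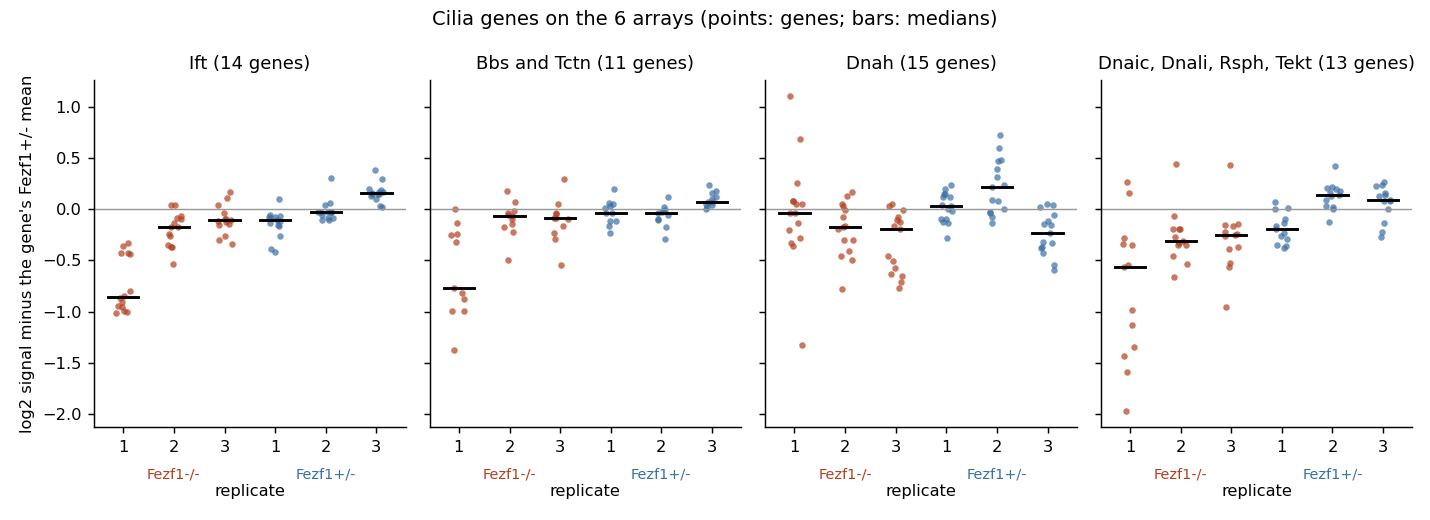
Log2 signal minus the gene's Fezf1+/- mean on each of the 3 Fezf1-/- arrays (red, left) and 3 Fezf1+/- arrays (blue, right), with a point per gene and a bar at the median. The Ift genes drop on Fezf1-/- 1 (median -0.86), whereas the Dnah genes do not (median -0.04) and are highest on Fezf1+/- 2 (median 0.21).

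Marker lists of cell types moved with these arrays. Mature olfactory sensory neuron markers, such as Omp, were below 0 in 16 of 16 (median -1.25, and -0.89 without Fezf1-/- 1), and 6 of 16 fell past the threshold without that array, as 1.67% of all genes did. Their summed linear signal was 4328, 12490 and 13210 on the Fezf1-/- arrays, against 18700, 19390 and 25580 on the Fezf1+/- arrays, lowest on Fezf1-/- 1 and highest on Fezf1+/- 3 as for many transport genes. Omp itself read 9.09, 10.77 and 10.84 in Fezf1-/- cells, against 11.84, 11.82 and 12.12 in Fezf1+/- cells (difference without Fezf1-/- 1 -1.12, adjusted p = 0.00702). Immature olfactory neuron markers were also lowest on Fezf1-/- 1, in 10 of 11. Measured from each gene's Fezf1+/- mean, their median was -0.86 there, and 0.36 and 0.41 on the other Fezf1-/- arrays. Multiciliated cell markers were below 0 in 17 of 20 (median -0.46, and -0.31 without Fezf1-/- 1). The 1 marker of that list past the threshold, Ccno, rose in the fit without Fezf1-/- 1, as 0.993% of all genes did. Mcidas, another regulator in the list, differed by 0.46 with all 6 arrays (adjusted p = 0.347). The summed signal of the multiciliated markers was 1509, 2152 and 2125 on the Fezf1-/- arrays, against 2325, 3042 and 2853 on the Fezf1+/- arrays. Their median log2 signal overlapped between the groups, at 6.19, 6.35 and 6.51 against 6.32, 6.73 and 6.34. Of these markers, 11 of 20 were highest on Fezf1+/- 2, the array on which most Dnah genes were highest. Log2 array signals have no true 0, so none of these markers can be called absent. The part of any of these cell types in the differences of the cilia genes was not tested.

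**Figure D4:**
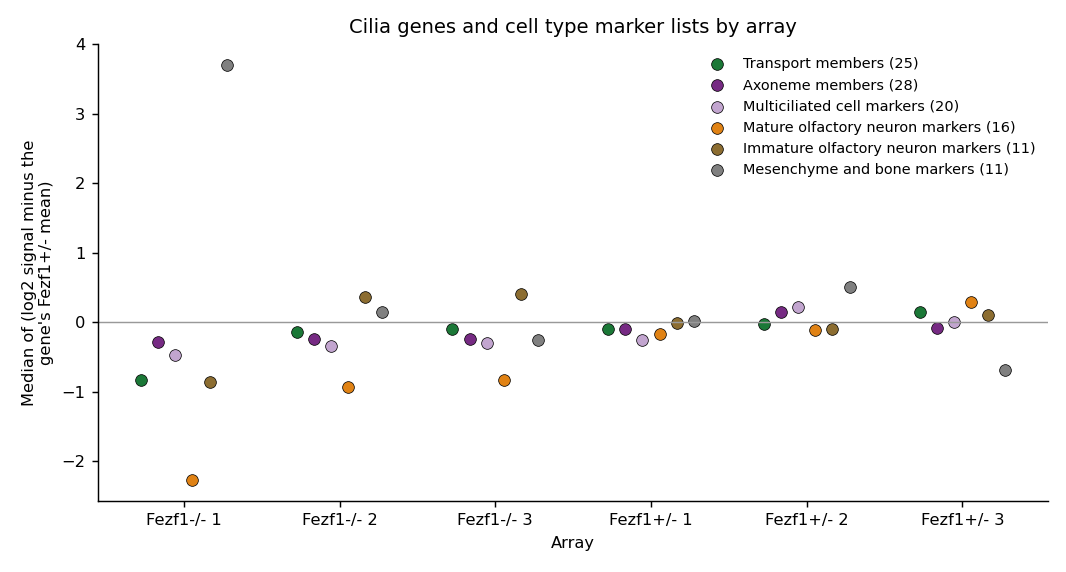
Median of log2 signal minus the gene's Fezf1+/- mean, for transport and axoneme genes and for 4 cell type marker lists, on the 3 Fezf1-/- arrays (left) and the 3 Fezf1+/- arrays (right), with the number of genes in the legend. On Fezf1-/- 1, mesenchyme and bone markers reach 3.70 while mature olfactory neuron markers (-2.27), immature olfactory neuron markers (-0.86) and transport genes (-0.82) are low.

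Other genes of the same machinery, listed by function and outside the symbol rule, gave similar values. None passed the threshold with all 6 arrays. The counts at an unadjusted p under 0.05 stand beside 5.25% of all genes lower at that p. IFT subunits under other names, listed together with Tulp3 and Rabl2, which are not subunits, were below 0 in 10 of 11. Tulp3 was the 1 above 0 (0.03). The list had a median of -0.36 (-0.17 without Fezf1-/- 1). Of its genes, 3 were lower at an unadjusted p under 0.05, Cluap1 (-0.36) and Ttc26 (-0.44) having the smallest p. IFT motors were below 0 in 12 of 12, with a median of -0.33 (-0.07 without that array), and 1 of them, Dync2li1, a light intermediate chain of the IFT dynein, had an unadjusted p under 0.05 (-0.41), near the share over all genes. Bardet-Biedl genes under other names, listed together with Rabl3, which is not one, were below 0 in 9 of 10 (median -0.29, and -0.19 without Fezf1-/- 1). Ttc8, a BBSome subunit, stood at -0.60 (adjusted p = 0.50). Transition zone genes were below 0 in 18 of 18 (median -0.34, and -0.16 without it). Of these, Cc2d2a fell in the fit without Fezf1-/- 1 (-0.73, adjusted p = 0.0240), with 6.91, 6.55 and 6.40 in Fezf1-/- cells, against 7.06, 7.26 and 7.30 in Fezf1+/- cells. It was the 1 of 18 past the threshold in that fit, where 1.67% of all genes were lower past the threshold.

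Other axoneme genes were below 0 in 42 of 45, with a median of -0.47 (-0.29 without Fezf1-/- 1), and 16 of 45 were lower at an unadjusted p under 0.05, against 5.25% of all genes. Dnajb13, a radial spoke protein, fell in the fit without that array (-1.25, adjusted p = 0.0307), with 5.75, 6.35 and 6.70 in Fezf1-/- cells, against 7.57, 7.58 and 8.16 in Fezf1+/- cells. Every Fezf1-/- array was well below every Fezf1+/- array. Dnajb13 was the 1 of 45 past the threshold in that fit, near the share of all genes lower there, 1.67%. Dynein arm assembly factors were below 0 in 13 of 14 (median -0.22, and -0.09 without that array), and Dnaaf1 differed by -0.39 (adjusted p = 0.256). Olfactory signalling genes of the cilium were below 0 in 12 of 13, with a median of -1.22 (-0.89 without that array), and 10 of 13 were lower at an unadjusted p under 0.05. In the fit without Fezf1-/- 1, 4 of the 13 fell past the threshold, as 1.67% of all genes did. They were Slc24a4 (-1.15), Stoml3 (-1.17), Adcy3 (-0.93), the adenylyl cyclase of odour transduction, and Pde1c (-0.89). These 4, and all others of the signalling list except Gnb1 and Cnga3, also stand in the mature neuron list. The values of the signalling list therefore largely repeat those of the mature neuron markers.

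Regulators of ciliogenesis were split in direction: 8 of 18 were below 0, with a median of 0.02 (-0.03 without Fezf1-/- 1). Gmnc, a geminin-like protein that starts the multiciliated programme, read 8.24, 9.51 and 9.0 in Fezf1-/- cells, against 7.03, 6.91 and 7.35 in Fezf1+/- cells. It rose in the fit without Fezf1-/- 1 (2.15, SE 0.19, adjusted p = 0.00325). Trp73, a p53 relative needed for multiciliated cells in mice, read 7.13, 7.92 and 7.76 in Fezf1-/- cells, against 6.39, 6.21 and 6.16 in Fezf1+/- cells. It rose as well (1.59, SE 0.11, adjusted p = 0.00123), as did Ccno, a cyclin-like protein of centriole amplification (0.72, SE 0.10, adjusted p = 0.0203). All 3 missed the threshold with all 6 arrays, at adjusted p = 0.124, 0.0861 and 0.188, although their groups did not overlap there. Of all genes, 0.993% rose past the threshold in the fit without Fezf1-/- 1.

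Foxj1 and Rfx3, which belong with the promoter sequences above, were picked for naming after their values were seen. Foxj1, the forkhead factor of motile cilia, read 6.95, 7.24 and 7.29 in Fezf1-/- cells, against 7.33, 7.60 and 7.83 in Fezf1+/- cells (difference -0.42, adjusted p = 0.504). Rfx3, an X-box factor, read 9.16, 10.19 and 10.23 in Fezf1-/- cells, against 10.59, 10.42 and 10.71 in Fezf1+/- cells (difference -0.72, and -0.37 without Fezf1-/- 1, adjusted p = 0.536 and 0.184). In both genes the groups did not overlap, and neither passed the threshold. The other Rfx genes of the list were closer to no change. With all 6 arrays Rfx1 differed by -0.14, Rfx2 by 0.0056, Rfx4 by -0.05, Rfx5 by -0.14 and Rfx7 by 0.03.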

How the data were processed

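The authors deposited a log2 signal for each probe set and array. Per the submitters' processing notes, the authors used Affymetrix Expression Console and GCRMA, with no versions given. The log base was taken as 2 from the values' range and is not stated in the sources used here. Background per probe could not be examined, and precision is limited by 3 arrays a group. Of 35557 probe sets, 21789 had 1 symbol, 1621 several and 12147 none in a 2016 platform annotation, and 21698 were matched to RefSeq by Entrez number. No filter on low values was used: 34 of the 53 members, 23 transport and 11 axoneme, lie above the median gene.

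Fezf1-/- and Fezf1+/- arrays were compared over 19938 genes by two-sided moderated tests in limma 3.58.1 under R 4.3.3, using lmFit and eBayes, p-values being adjusted by Benjamini-Hochberg across the whole table and called at 0.05. The procedure was tested on simulated data with independent values per gene and no array standing apart. That setting differs from these data, where Fezf1-/- 1 stood apart. Groups and replicate numbers are those of the labels, which leave unstated whether each replicate was another embryo, so p-values measure only the spread between these samples. The labels state no pairing, so the numbers were not taken as pairs. Deviations of same-numbered arrays from their group means correlated at 0.23, -0.33 and 0.54. With 3 arrays a group and 1 array standing apart, these values cannot decide whether the numbers mark pairs.

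The members, the 19 gene lists and the alternatives were chosen with earlier results of these data known. Named genes were every member past the threshold, the 4 members of each family with the smallest p and those with the highest and lowest mean, and, from each list, up to 4 genes past the threshold or otherwise the 2 with the smallest p. Further members are given so that all 53 are accounted for. Promoter sequences are RefSeq's, build GRCm38.p6. The alternatives were other normalisations, filters, variance settings, symbols and probe-set summaries, a replicate block, and leaving out each array.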

Additional observations from a re-analysis of the deposited data

How the results depend on the processing

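With all 6 arrays, 110 genes passed the threshold, 91 of them lower. This count was 740 with array weights (61.6% lower), 47 with a floor at the lower quartile (70.2% lower), 24 among genes above the median signal (54.2% lower), and 40 to 531 when single arrays were left out. Without Fezf1-/- 1, 62.7% of the 531 were lower. The count of transport genes past the threshold was 0, and 1 with array weights (Bbs5). For axoneme genes it was 0, 2 with array weights (Dnah11 and Rsph14), and 0 to 1 leaving out single arrays. Transport genes at an unadjusted p under 0.05 numbered 2, against 4 with array weights, 1 with median centring and 1 to 4 leaving out single arrays. Axoneme genes at that p numbered 8, against 5 among genes above the median signal, where 11 of 28 remained and their median was -0.62, and 5 to 8 leaving out single arrays. The replicate number as a block, for which the labels state no pairing, gave 88 genes past the threshold, 0 members, and 5 transport genes at an unadjusted p under 0.05. Dnah14, at 0.01, turned to -0.0076 under quantile normalisation, and ran between -0.0555 and 0.0676 when single arrays were left out. Fewer genes were tested under the filter; for the other settings the cause was not tested.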

Other observations

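Other values of the cell type lists were these. Immature olfactory neuron markers had a median difference of -0.08 with all 6 arrays and 0.35 without Fezf1-/- 1. In the fit without that array 3 of 11 rose past the threshold, as 0.993% of all genes did. They were the neuronal genes Stmn4 (0.94), Chl1 (0.77) and Ablim1 (0.71). Sustentacular cell markers had a median of -0.08, and of -0.54 without that array, where Ermn fell (-0.96, limma adjusted p = 0.0240). In that fit Ermn was the 1 of 9 past the threshold, and 1.67% of all genes fell past the threshold without Fezf1-/- 1. Progenitor markers had a median of 0.00, and of 0.06 without it, with none of 7 past the threshold. Testis germ cell markers, set beside the sperm dyneins and tektins, had a median of 0.12, and of 0.15 without it. Another 4 lists were higher with Fezf1-/- 1 than without it: myeloid cells at 0.78 and 0.10, endothelium at 0.37 and -0.10, ensheathing glia at 0.44 and 0.11, and erythroid cells at 0.22 and 0.03. None of the genes in these 4 lists passed the threshold in either fit.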
